A study of Mus musculus with 24 samples.

Results

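The genes described here encode factors that shorten the poly(A) tail, cut, or remove the cap of messenger RNA. They were chosen by name from the deposited expression table: Noct, Zc3h12a, Btg1, Btg2, Zfp36, Zfp36l1, Zfp36l2, Dcp1a, Dcp1b and Dcp2. Of the 10 names, 9 had a row of their own among the 12224 rows of the table, and all 9 passed a filter on low values that kept 11557 rows. Zfp36 stood only in a row that joins it with its neighbour Med29, so it has no value of its own. The names were proposed with results of these libraries in view, and the agonist effect in wild-type cells is taken as what they were chosen on. That effect, and every difference that contains the wild-type agonist libraries, is therefore given for them as a description without a p-value.

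RNA was measured in 24 libraries of the mouse line mpkCCD, epithelial cells that derive from the cortical part of the renal collecting duct. The 4 groups of 6 libraries were wild-type (WT) cells with agonist, WT cells with vehicle, Gpr39 knockout (KO) cells with agonist and KO cells with vehicle. Gpr39 encodes a zinc-sensing receptor, and cpd1324 is an agonist of it. Agonist libraries came from cells given 1 µM cpd1324 and vehicle libraries from cells given 0.1% DMSO, each for 2 h. No DMSO level is listed for the agonist cells. All 4 groups also received 10 µM ZnCl2. Every group had first grown for 9 days on permeable inserts without the vasopressin analogue dDAVP and had then spent 24 h in a simpler medium. The labels give neither the number of knockout clones nor the edited site, and they do not say whether the 6 replicates were separate cultures, so p-values measure the spread between these samples, which may be technical. Library numbers ran by group, so library order and group cannot be told apart.

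Levels are in scaled units: the deposited values, already divided by gene length and by a factor per library, times 1 constant for the whole table. Reads recovered from these values ran from 29.8 M to 51.9 M per library. Of 13 principal-cell and epithelial markers, 10 passed the filter, Aqp2 among them. Their summed level was 8230 to 10800 scaled units in WT cells with agonist and 4100 to 4600 in WT cells with vehicle. In KO cells it was 3810 to 4500 with agonist and 4150 to 4610 with vehicle. The sum thus moved with the agonist effect described below, and its part in that effect was not tested. It is weighted to the most abundant genes, so it does not show how each of the 10 moved. Aqp2, the vasopressin-regulated water channel, went the other way in WT cells, at 11.7 ± 1.74 scaled units with agonist and 17.7 ± 4.94 with vehicle (SD, n = 6 each). Its log2 fold change there was −0.54 ± 0.17 (adjusted p = 0.00865, limma), with overlapping libraries. In KO cells Aqp2 had 66.35 ± 15.14 with agonist and 87.33 ± 18.02 with vehicle (SD, n = 6 each). That log2 fold change was −0.40 ± 0.17 (adjusted p = 0.129, limma, not passed). The WT effect less the KO effect was −0.15 (adjusted p = 0.667, limma, not passed). None of 3 endothelial markers was in the table, and 2 of 3 immune markers (Cd68, Csf1r), 1 of 4 fibroblast (Col1a1), 1 of 4 proximal tubule (Lrp2) and 1 of 4 intercalated cell markers (Atp6v1b1) passed the filter. The proximal tubule list summed to 11.0 to 16.4 scaled units in WT cells with agonist and 8.06 to 10.6 in WT cells with vehicle, and to 4.66 to 8.91 in KO cells with agonist and 4.49 to 6.77 in KO cells with vehicle. The intercalated cell list summed to 36.8 to 45.9 in KO cells with vehicle and 49.0 to 66.7 in WT cells with vehicle, and to 37.1 to 47.8 in KO cells with agonist and 50.2 to 66.9 in WT cells with agonist. The proximal tubule list did not overlap between agonist and vehicle in WT cells, and neither list overlapped between KO and WT cells given the same treatment. The immune list lay at 51.0 to 57.5 in KO cells with agonist and at 65.6 or more in WT cells with agonist, and the fibroblast list at 3.27 or less in every library. The part of these lists in the results below was not tested. Gpr39 itself had 9.40 ± 0.882 scaled units in KO cells with agonist and 9.37 ± 0.645 in KO cells with vehicle, against 29.2 ± 1.33 in WT cells with agonist and 21.6 ± 1.61 in WT cells with vehicle (SD, n = 6 each), with no overlap between KO and WT libraries. Aqp2 had 87.3 ± 18.0 scaled units in KO cells with vehicle and 17.7 ± 4.94 in WT cells with vehicle (SD, n = 6 each), so a defining marker of the line differed between genotypes, and its part in the genotype differences below was not tested. Bulk libraries cannot tell a change in RNA per cell from a change in which cells were present.

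Most messenger RNAs are degraded after their poly(A) tail is shortened, chiefly by the CCR4-NOT complex, after which the cap is removed by DCP2 with its activators DCP1A and DCP1B and the body is digested from the 5′ end, or the RNA exosome digests it from the 3′ end. Proteins of the ZFP36 family bind AU-rich elements in 3′ untranslated regions and bring in CCR4-NOT, BTG1 and BTG2 bind its CAF1 nuclease subunits and stimulate deadenylation, and regnase-1, the product of Zc3h12a, cuts stem-loops in cytokine transcripts. Nocturnin, the product of Noct, is a relative of the CCR4 nucleases with a strong daily rhythm in many mouse tissues; it was described as a deadenylase and later as a phosphatase acting on NADP(H). Several of these genes are themselves known as immediate early genes whose transcripts are short-lived. Transcript levels were measured here, not decay rates or tail lengths.

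The 3 promoters shown first are those of the members with the greatest agonist-to-vehicle ratios in WT cells, and they are shown so that their motifs can be compared. Each is the 180 bases upstream of the RefSeq transcription start, from build GRCm38.p6, on the gene's own strand. Capitals mark matches to the cyclic AMP response element TGACGTCA and to the EGR motif GCGNGGGCG, both searched on both strands. Btg2 lies at chr1:134079156-134079335 (minus strand), Noct at chr3:51224267-51224446 (plus strand) and Zc3h12a at chr4:125127882-125128061 (minus strand).
Btg2: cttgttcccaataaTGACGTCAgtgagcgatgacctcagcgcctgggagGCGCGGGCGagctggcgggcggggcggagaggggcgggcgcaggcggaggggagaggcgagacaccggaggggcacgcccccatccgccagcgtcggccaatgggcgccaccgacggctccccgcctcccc
Noct: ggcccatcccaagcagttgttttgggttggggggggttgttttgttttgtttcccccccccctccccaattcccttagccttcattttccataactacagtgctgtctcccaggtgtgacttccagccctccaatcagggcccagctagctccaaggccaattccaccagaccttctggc
Zc3h12a: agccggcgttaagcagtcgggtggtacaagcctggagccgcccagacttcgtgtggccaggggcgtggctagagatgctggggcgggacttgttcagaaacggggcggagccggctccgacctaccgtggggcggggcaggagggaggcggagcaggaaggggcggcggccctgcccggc

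The Btg2 promoter held the full cyclic AMP response element from −166 to −159 and an EGR match from −131 to −123, counted from the transcription start. Windows reaching from 250 bases before to 50 after the start were available for 8 members, and Zfp36l2 and Dcp2 are named only. Among 11193 such windows of measured genes, 3.10% held the full element and 10.6% the EGR motif. Zfp36 was the other member with an EGR match, from −105 to −97, and it also held a CArG box, which 1.35% of windows had. An AP-1 match (TGANTCA, in 5.22% of windows) was found for Zfp36l1 from −129 to −123. The shorter TGACG occurred in 31.3% of windows and in 4 of the 8 members; in Btg2 it lay inside the full element on both strands. An NF-kB consensus match stood at the start of Dcp1b and in 10.6% of windows, and the E-box CACGTG, in 9.93% of windows, was in none of the 8. A match describes letters and is not evidence of binding.

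The AU-rich heptamer TATTTAT is a core that ZFP36 proteins bind. In GENCODE transcripts of build GRCm38 the 3′ untranslated regions of Zfp36, Zfp36l1 and Zfp36l2 held 3 copies each, those of Noct and Dcp2 held 2 each, those of Btg2, Dcp1a and Dcp1b held 1 each, and those of Btg1 and Zc3h12a held none. At least 1 copy was present in 27.8% of 10199 measured genes, and that share was higher among longer regions. Among genes with a region of like length it was 21.0% for Zfp36, 23.1% for Zc3h12a, 27.3% for Noct and 33.8% for Dcp1b. It was 37.1% for Zfp36l2, 37.2% for Zfp36l1, 42.3% for Btg2, 57.9% for Dcp1a, 61.0% for Btg1 and 71.8% for Dcp2. The windows below, 30 bases each in DNA letters with the heptamer in capitals, are from members whose levels are followed below.
Noct: tcatttcaagtTATTTATttgtgggatttt
Btg2: aaatgaagagcTATTTATacatgttttttt
Zfp36l1: ttatcaaaacgTATTTATtgccaaactatg
Zfp36l2: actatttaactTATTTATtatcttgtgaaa

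In WT cells, Noct, Zc3h12a and Btg2 stood several-fold higher with agonist than with vehicle, Btg1, Zfp36l1 and Zfp36l2 between 1.32-fold and 1.45-fold higher, and the decapping genes close to their vehicle levels. In KO cells given the same agonist no member passed the test. Agonist and vehicle libraries of WT cells did not overlap for 6 of the 9 measured members, all 6 higher with agonist, and they overlapped for Dcp1a, Dcp1b and Dcp2. Of all 11557 rows tested, 37.5% did not overlap in WT cells, 19.8% of all rows being higher and 17.7% lower with agonist. Since this contrast chose the members, nothing is read from their count.

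**Figure D1:**
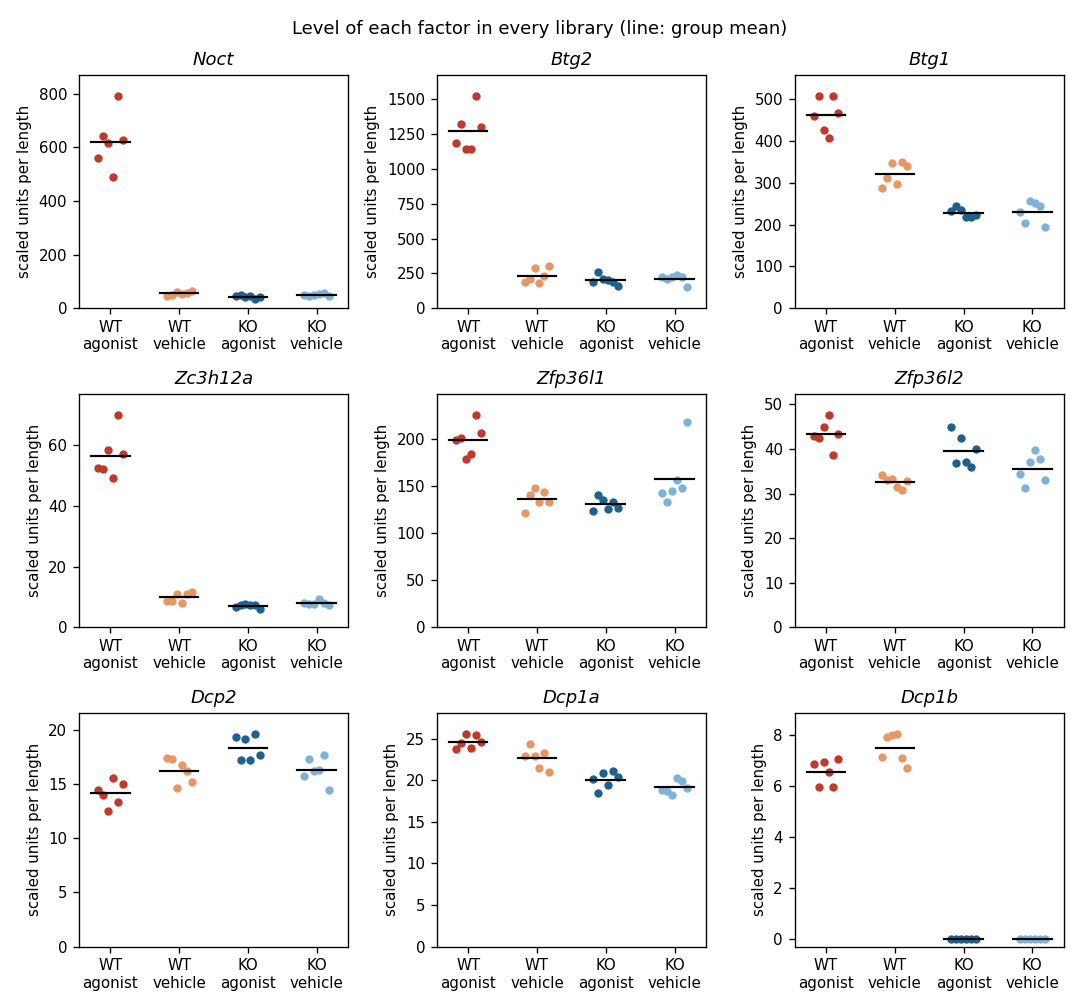
Level of each measured member in every library, in scaled units per gene length; points are libraries and lines are means of 6, with WT agonist, WT vehicle, KO agonist and KO vehicle in that order. For Noct, Btg2 and Zc3h12a the 6 WT agonist libraries stand apart from the other 18, and Dcp1b is at 0 in all 12 KO libraries.

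Noct, on chromosome 3, had the largest ratio of the members. Its level ran from 490 to 791 scaled units, with a median of 621, in WT cells with agonist, against 47.1 to 64.1, with a median of 54.2, in WT cells with vehicle. In KO cells it ran from 34.7 to 50.3 with agonist (median 43.0) and from 45.5 to 57.9 with vehicle (median 49.6). Every WT agonist library was thus above every other library, and the KO agonist and vehicle ranges overlapped. The log2 fold change in WT cells was 3.49 ± 0.097 (SE), an 11.2-fold difference and the 26th highest of all rows. In KO cells it was −0.23 ± 0.097, short of the threshold (adjusted p = 0.126, limma). Without KO vehicle replicate 6 and KO agonist replicate 2, it was −0.30 (adjusted p = 0.0395, limma). Among all levels Noct stood at percentile 97.8 in WT cells with agonist and at percentile 66.7 in WT cells with vehicle.

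Btg2, on chromosome 1, was the most abundant member in WT cells with agonist. It ran from 1144 to 1524 scaled units there (median 1240), against 179 to 301 in WT cells with vehicle (median 221). In KO cells the range was 162 to 259 with agonist (median 196) and 149 to 238 with vehicle (median 220). The WT agonist libraries again lay above all others, while the remaining 3 groups overlapped one another. The log2 fold change was 2.47 ± 0.128 in WT cells and −0.05 ± 0.128 in KO cells, where it did not pass the test (adjusted p = 0.814, limma).

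Btg1, the close relative of Btg2 on chromosome 10, differed from it in size and in its level without agonist. Its level was 408 to 508 scaled units in WT cells with agonist (median 464), against 288 to 349 in WT cells with vehicle (median 327). In KO cells it was 218 to 245 with agonist (median 228) and 196 to 256 with vehicle (median 238), below every WT library in either treatment. The log2 fold change with agonist was 0.52 ± 0.068 in WT cells and −0.00 ± 0.068 in KO cells (adjusted p = 0.988, limma, not passed).

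The makeup of the Btg1 and Btg2 pair differed between groups. Btg2 made up 73.2 ± 1.09% of their summed level in WT cells with agonist and 41.5 ± 3.73% in WT cells with vehicle (SD, n = 6 each). In KO cells the share was 46.7 ± 3.11% with agonist and 47.5 ± 2.58% with vehicle. The WT agonist libraries, at 72.0% to 75.0%, lay above the 37.5% to 51.5% of all other libraries. A share within a library does not depend on the scaling between libraries, but it does depend on the division by gene length.

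**Figure D2:**
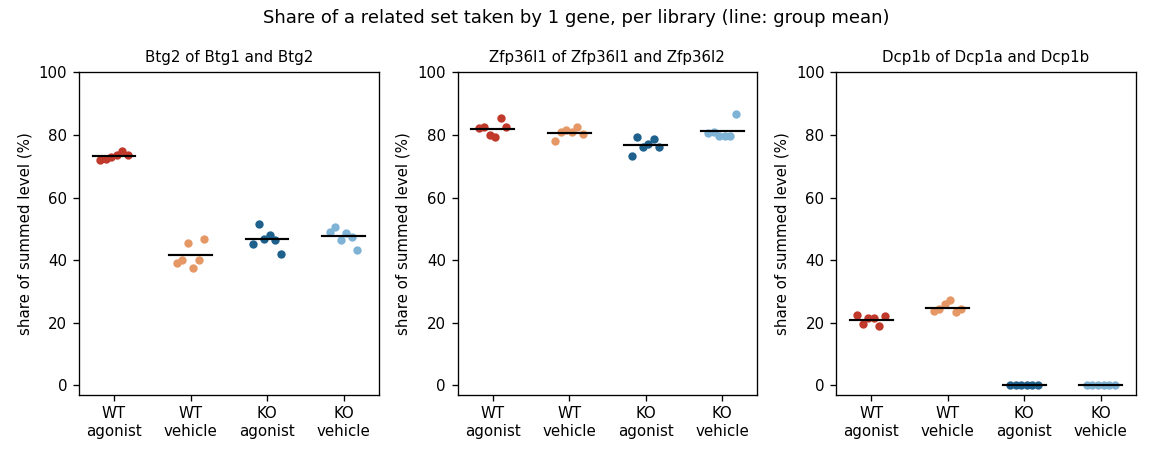
Share of a summed per-length level taken by 1 gene of a related pair, in percent, for each library (points) with the mean of 6 (line). Btg2 exceeds 72.0% of the Btg1 and Btg2 sum in each WT agonist library, Zfp36l1 keeps 73.4% to 86.8% of its pair in all 24 libraries, and Dcp1b is at 0 in KO cells.

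Zc3h12a, on chromosome 4, was among the scarcer members under vehicle. It ran from 49.2 to 69.9 scaled units in WT cells with agonist (median 54.9), against 8.15 to 11.8 in WT cells with vehicle (median 9.87). The KO range was 6.11 to 7.56 with agonist (median 7.39) and 7.26 to 9.37 with vehicle (median 7.81). WT agonist libraries did not overlap the rest, and the KO groups overlapped each other. The log2 fold change was 2.46 ± 0.09 in WT cells, next to that of Btg2 in rank (76th and 75th highest), and −0.16 ± 0.09 in KO cells (adjusted p = 0.256, limma, not passed).

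Of the ZFP36 family, Zfp36l1, on chromosome 12, ran from 179 to 225 scaled units in WT cells with agonist (median 199), against 121 to 147 in WT cells with vehicle (median 137). Its KO range was 124 to 140 with agonist (median 130) and 133 to 218 with vehicle (median 146). KO vehicle replicate 6 alone stood at 218, and the other 5 KO vehicle libraries were at 157 or below. The log2 fold change was 0.54 ± 0.082 in WT cells and −0.25 ± 0.082 in KO cells, which did not pass the test (adjusted p = 0.0574, limma). Without KO vehicle replicate 6, the library at 218, it was −0.15 (adjusted p = 0.0718, limma). It passed, as a fall, without KO agonist replicate 2 (−0.27, adjusted p = 0.0406), without KO vehicle replicate 2 (−0.29, adjusted p = 0.0369), and without KO vehicle replicate 6 and KO agonist replicate 2 together (−0.17, adjusted p = 0.0378).

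Zfp36l2, on chromosome 17, was scarcer and moved less. Its level was 38.7 to 47.6 scaled units in WT cells with agonist (median 43.1), against 30.7 to 34.3 in WT cells with vehicle (median 32.9). In KO cells it was 36.0 to 44.9 with agonist (median 38.5) and 31.3 to 39.7 with vehicle (median 35.7), so these groups overlapped. The log2 fold change was 0.40 ± 0.06 in WT cells and 0.15 ± 0.06 in KO cells (adjusted p = 0.104, limma, not passed). Zfp36l1 made up 82.0 ± 2.11% of the pair in WT cells with agonist, 80.7 ± 1.51% in WT cells with vehicle, 76.8 ± 2.11% in KO cells with agonist and 81.2 ± 2.79% in KO cells with vehicle (SD, n = 6 each). The row that joins Med29 and Zfp36 held 7.20 ± 0.360 scaled units in WT cells with agonist and 7.30 ± 0.261 in WT cells with vehicle, and 7.64 ± 0.535 in KO cells with agonist and 8.49 ± 1.61 in KO cells with vehicle (SD, n = 6 each). Reads of either gene alone cannot be read from it.

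The decapping genes were close to their vehicle levels. Dcp2, the catalytic subunit, on chromosome 18, ran from 12.5 to 15.6 scaled units in WT cells with agonist (median 14.2), against 14.6 to 17.5 in WT cells with vehicle (median 16.5). It ran from 17.2 to 19.6 in KO cells with agonist (median 18.4), against 14.5 to 17.7 in KO cells with vehicle (median 16.3). Its log2 fold change was −0.19 ± 0.059 in WT cells and 0.17 ± 0.059 in KO cells, where it did not pass the test (adjusted p = 0.0671, limma). Without KO agonist replicate 2 the KO value was 0.19 (adjusted p = 0.0441, limma). Dcp1a, an activator of DCP2, on chromosome 14, had 24.6 ± 0.726 scaled units in WT cells with agonist and 22.7 ± 1.24 in WT cells with vehicle, and 20.1 ± 0.985 in KO cells with agonist and 19.2 ± 0.792 in KO cells with vehicle (SD, n = 6 each). Its log2 fold change was 0.12 ± 0.042 in WT cells, which turned to −0.12 when every library was scaled to the same total, and 0.06 ± 0.042 in KO cells (adjusted p = 0.327, limma, not passed). Dcp1b, its relative on chromosome 6, had 6.55 ± 0.478 scaled units in WT cells with agonist and 7.48 ± 0.570 in WT cells with vehicle, from 90 to 174 reads a library, with a log2 fold change of −0.18 ± 0.076. It was listed at 0 in every KO library.

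**Figure D3:**
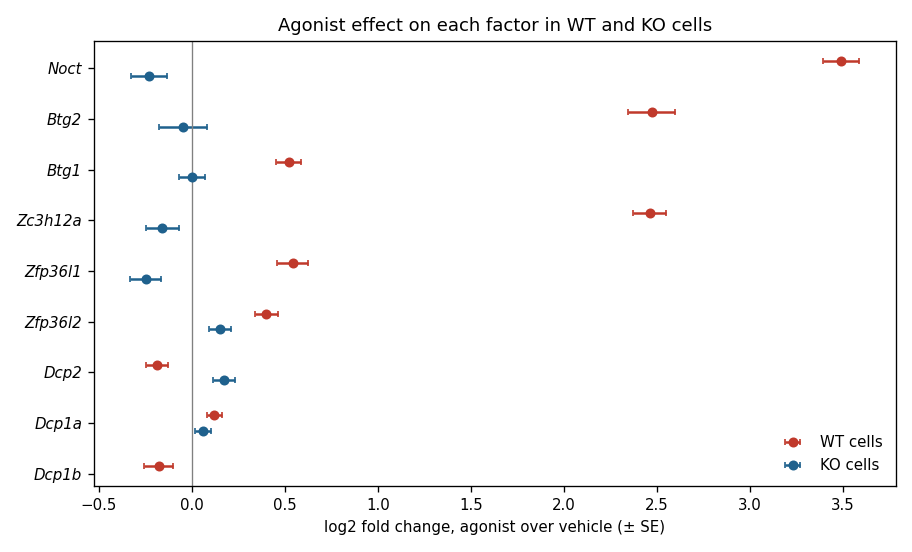
Log2 fold change of agonist over vehicle for each measured member in WT cells (red) and KO cells (blue), with bars of 1 SE from the fit over all 24 libraries. Noct, Btg2 and Zc3h12a lie between 2.46 and 3.49 in WT cells, and all KO values lie between −0.25 and 0.17; Dcp1b has no KO value since it is listed at 0 there.

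In KO cells, 0 of the 8 members with a level were called with agonist (adjusted p below 0.05, limma), where 9.30% of all rows were. At an unadjusted p below 0.05 there were 4, namely Noct and Zfp36l1 lower and Zfp36l2 and Dcp2 higher. The share of all rows at that unadjusted threshold was not counted, so nothing is read from these 4. Limma's voom on recovered reads also called 0 at an adjusted p below 0.05. The KO agonist and vehicle libraries overlapped for all 8, where 4.53% of all rows did not overlap. Leaving out 1 library at a time gave 0 to 2 called members. The difference between the WT and KO effects, on the log2 scale, was 3.72 for Noct, 2.62 for Zc3h12a, 2.52 for Btg2, 0.78 for Zfp36l1, 0.52 for Btg1, 0.25 for Zfp36l2, 0.05 for Dcp1a and −0.36 for Dcp2. When every library was scaled to the same total, it was −0.02 for Zfp36l2 and −0.22 for Dcp1a, so that both turned sign, 0.25 for Btg1 and −0.63 for Dcp2. After quantile scaling it was 0.18 for Btg1.

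Scaling bears on the smaller changes. Under equal library totals the median log2 fold change over all genes in WT cells moved to −0.24, against −0.01 as deposited and −0.06 after quantile scaling. Under it the WT fold changes were 3.25 for Noct, 2.23 for Zc3h12a, 2.23 for Btg2, 0.30 for Zfp36l1, 0.28 for Btg1, 0.16 for Zfp36l2, −0.12 for Dcp1a, −0.40 for Dcp1b and −0.43 for Dcp2. The order of the members was close to that as deposited, and the sign of Dcp1a turned.

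Without agonist the members ranked alike in both genotypes apart from the Dcp1b gap. In WT cells with vehicle the order of mean levels was Btg1, Btg2, Zfp36l1, Noct, Zfp36l2, Dcp1a, Dcp2, Zc3h12a and Dcp1b. Of these neighbours, only Btg1 and Btg2 overlapped in range. In WT cells with agonist Btg2 led, followed by Noct, Btg1, Zfp36l1, Zc3h12a, Zfp36l2, Dcp1a, Dcp2 and Dcp1b, and only Noct and Btg1 overlapped. Btg2 and Btg1 also led in KO cells and overlapped there in both treatments.

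Of the 8 members with a level in both genotypes, 3 were called in KO against WT cells under vehicle, Btg1, Dcp1a and Zc3h12a, all lower. Of all rows, 47.8% were called in either direction and 23.9% were called lower, so nothing is read from the count of members. This comparison shares the WT vehicle libraries with the contrast that chose the members. Btg1 had 230 ± 25.2 scaled units in KO cells and 322 ± 26.7 in WT cells with vehicle (SD, n = 6 each), with no overlap, as for 27.3% of all rows (13.2% higher, 14.1% lower in KO cells), and a log2 fold change of −0.49 ± 0.068 (adjusted p = 2.2e-06, limma). Dcp1a was lower by less, at −0.24 ± 0.042 (adjusted p = 5.83e-05, limma), again without overlap. Zc3h12a fell by 0.28 ± 0.09 on the log2 scale (adjusted p = 0.0124, limma), with overlapping libraries. Noct (−0.11, adjusted p = 0.349), Btg2 (−0.13, adjusted p = 0.413), Zfp36l1 (0.18, adjusted p = 0.0678), Zfp36l2 (0.12, adjusted p = 0.104) and Dcp2 (0.00, adjusted p = 0.959) did not pass in limma. Without KO vehicle replicate 2, Zfp36l1 (0.23, adjusted p = 0.0272) and Zfp36l2 (0.16, adjusted p = 0.0362) did, while without KO vehicle replicate 6 Zfp36l1 was at 0.09 (adjusted p = 0.197).

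Under agonist the KO and WT libraries did not overlap for 7 of these 8 members, 6 of them lower and 1 higher in KO cells, where 46.3% of all rows did not (24.6% lower, 21.7% higher). The log2 difference was −3.83 for Noct, −2.90 for Zc3h12a, −2.66 for Btg2, −1.01 for Btg1, −0.60 for Zfp36l1, −0.29 for Dcp1a and 0.37 for Dcp2. Zfp36l2, at −0.13, overlapped. With equal library totals the difference turned to 0.15 for Zfp36l2, and it was −0.01 for Dcp1a and 0.65 for Dcp2.

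Dcp1b was 1 of 3 rows at 0 in all 12 KO libraries and above 0 in all 12 WT libraries, and no row showed the reverse. The others were Micu2, a regulator of the mitochondrial calcium uniporter, on chromosome 14, and Parp11, on chromosome 6. In WT cells Dcp1b made up 21.0 ± 1.38% of the summed Dcp1a and Dcp1b level with agonist and 24.8 ± 1.46% with vehicle (SD, n = 6 each). Measured genes on both sides of Dcp1b were present in KO cells. Of the 12 nearest in gene order, 6 on each side, 9 were lower than in WT cells with vehicle in limma and 3 did not pass, namely Csgalnact2 at 99.9% of its WT mean (adjusted p = 0.974), Zfp9 at 143% (adjusted p = 0.126) and Ninj2 at 67.2% (adjusted p = 0.232). Among the 9, Ankrd26 stood at 73.3%, Adipor2 at 68.0%, Erc1 at 75.8% and Rad52 at 68.4%, the 4 with the smallest adjusted p (4.7e-08 to 1.66e-05). Zfp9, Ninj2, Cacna2d4 and Rasgef1a lay near the filter, with 1.06 to 1.76 scaled units in WT cells with vehicle, so their percentages are imprecise. Across chromosome 6 the median log2 fold change of KO over WT with vehicle was −0.33 and 78.6% of 527 rows were called, against 0.00 and 47.8% of all rows. On chromosome 10, which holds Btg1, the median was −0.16 with 61.8% of rows called, and on chromosome 14, which holds Dcp1a, it was −0.10 with 50.4%. The part of these chromosome-wide differences in the values of Btg1, Dcp1a and Dcp1b was not tested.

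**Figure D4:**
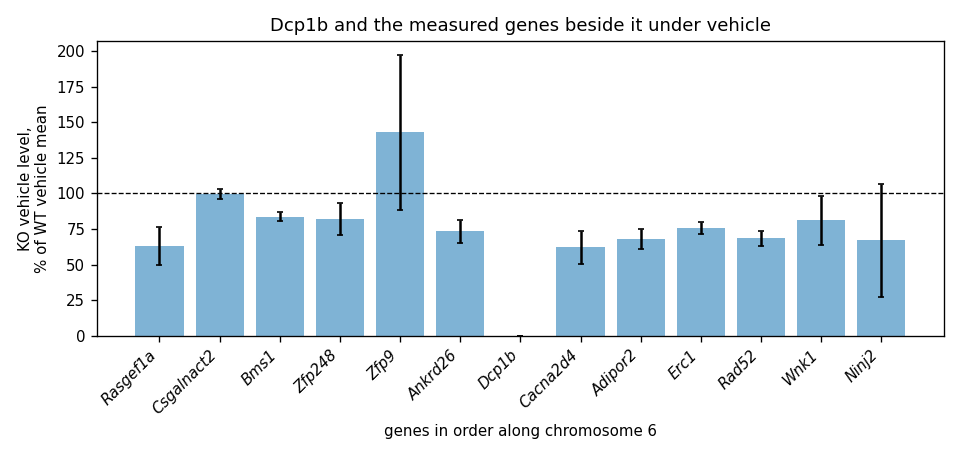
Mean level in KO cells with vehicle as a percent of the WT vehicle mean, for Dcp1b and the 6 measured genes on either side of it along chromosome 6; bars are means of 6 libraries, error bars are 1 SD of the KO libraries on the same scale and the dashed line is 100%. Dcp1b is at 0 while its neighbours range from 62.1% (Cacna2d4) to 143% (Zfp9), both of them genes near the filter of 1 scaled unit.

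The rest of the decay machinery was read from lists covering 99 further genes, of which 86 were tested. With agonist in WT cells 38 rose and 10 fell (adjusted p below 0.05, limma), against 57.2% of all rows called, 28.6% in each direction, and the median log2 fold change was 0.10. When every library was scaled to the same total, 11 were higher and 42 lower with a median of −0.14, and after quantile scaling 26 were higher and 18 lower. The balance of directions thus turned with the scaling, and the genes named below as rising in WT cells kept an adjusted p below 0.05 under all 3 scalings unless a value is given.

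Among deadenylase subunits, 5 of 14 rose and 1 fell in WT cells, but 1 was higher and 9 lower with equal totals, and 3 higher and 3 lower after quantile scaling. Cnot7, a CAF1 nuclease subunit that BTG proteins bind, had 63.5 ± 3.15 scaled units with agonist and 45.4 ± 1.93 with vehicle (SD, n = 6 each; log2 fold change 0.48 ± 0.06, adjusted p = 3.78e-07, limma). Its paralog Cnot8 fell, to 37.8 ± 2.20 with agonist against 43.1 ± 2.79 with vehicle (−0.19 ± 0.05, adjusted p = 0.00118, limma). Cnot6, a CCR4 nuclease subunit, rose by 0.26 (adjusted p = 1.46e-05, limma), but by 0.02 with equal totals (adjusted p = 0.812). The WT and KO effects differed for Cnot7 (0.60, adjusted p = 4.31e-06) and for Cnot8 (−0.28, adjusted p = 0.00111) in limma.

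Of the relatives of BTG1 and BTG2, Btg3 rose, to 28.1 ± 2.51 scaled units with agonist against 17.6 ± 2.33 with vehicle in WT cells (SD, n = 6 each; 0.66 ± 0.07, adjusted p = 3.7e-08, limma), and this effect exceeded that in KO cells by 0.84 (adjusted p = 4.39e-07). Tob2 fell by 0.09 (adjusted p = 0.0314, limma). Among relatives of nocturnin, Pde12, a mitochondrial poly(A) nuclease, rose by 0.20 (adjusted p = 0.00101, limma; −0.04 with equal totals, adjusted p = 0.436) and Angel2 fell by 0.08 (adjusted p = 0.0229, limma).

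In the decapping list 4 of 13 genes rose and 3 fell in WT cells, but 0 were higher and 8 lower with equal totals, and 2 higher and 6 lower after quantile scaling. Nudt16, a decapping enzyme, had the largest fall of all 86 genes, with a log2 fold change of −0.94 ± 0.10 (adjusted p = 1.3e-08, limma). It had 5.12 ± 0.820 scaled units with agonist and 10.3 ± 1.38 with vehicle (SD, n = 6 each). Lsm6, a subunit of the ring that binds shortened tails, fell by 0.46 (adjusted p = 1.91e-07, limma). Lsm4, another subunit, rose by 0.37 (adjusted p = 8.76e-05, limma), which did not hold with equal totals (0.13, adjusted p = 0.111) or after quantile scaling (0.15, adjusted p = 0.0671). Of the 5′ exonucleases, nuclear Xrn2 rose by 0.24 (adjusted p = 1.11e-06, limma; 0.00 with equal totals, adjusted p = 0.949, and 0.08 after quantile scaling, adjusted p = 0.0879).

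For the exosome and its SKI cofactor, 3 of 13 genes rose and 2 fell in WT cells, against 0 higher and 8 lower with equal totals. Dis3, the nuclear catalytic subunit, rose by 0.29 (adjusted p = 1.33e-07, limma; 0.06 with equal totals, adjusted p = 0.221), while its cytoplasmic paralog Dis3l fell by 0.30 (adjusted p = 1.19e-05, limma). Both roquin genes, whose products act on many of the transcripts that regnase-1 cuts, rose: Rc3h2 by 0.53 (adjusted p = 1.01e-07, limma) and Rc3h1 by 0.44 (adjusted p = 0.000143, limma). In nonsense-mediated decay 5 of 10 genes rose, against 2 higher and 5 lower with equal totals. Among the 5 was Upf1, the central helicase, with 97.3 ± 7.58 scaled units with agonist and 75.8 ± 5.00 with vehicle (SD, n = 6 each; 0.36 ± 0.06, adjusted p = 8.11e-06, limma; 0.12 with equal totals, adjusted p = 0.108).

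Of 6 genes whose products bind AU-rich elements, as ZFP36 does, 4 rose in WT cells, while Khsrp (adjusted p = 0.0872) and Tia1 (adjusted p = 0.70) did not pass in limma. With equal totals 2 were higher and 2 lower. Elavl1, encoding the stabilising protein HuR, rose by 0.51 ± 0.04 (adjusted p = 4.4e-10, limma) and Hnrnpd, encoding AUF1, by 0.46 ± 0.04 (adjusted p = 2.66e-09, limma) in WT cells. Samd4b, a Smaug protein that recruits CCR4-NOT, rose by 0.62 ± 0.04 (adjusted p = 1.8e-12, limma) and its relative Samd4 by 0.52 ± 0.07 (adjusted p = 2.53e-07, limma); all 4 Pumilio and Smaug genes tested were higher as deposited, but 2 of 4 with equal totals. Of 5 genes of poly(A)-binding proteins and their partners 3 rose, against 1 higher and 1 lower with equal totals. Pabpc4 rose by 0.46 ± 0.04 (adjusted p = 7.27e-10, limma). Of 9 microRNA and m6A effectors 5 rose and 2 fell, against 0 higher and 3 lower with equal totals. Ythdf2, a reader of m6A that recruits CCR4-NOT, rose by 0.28 (adjusted p = 1.8e-06, limma; 0.04 with equal totals, adjusted p = 0.42).

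**Figure D5:**
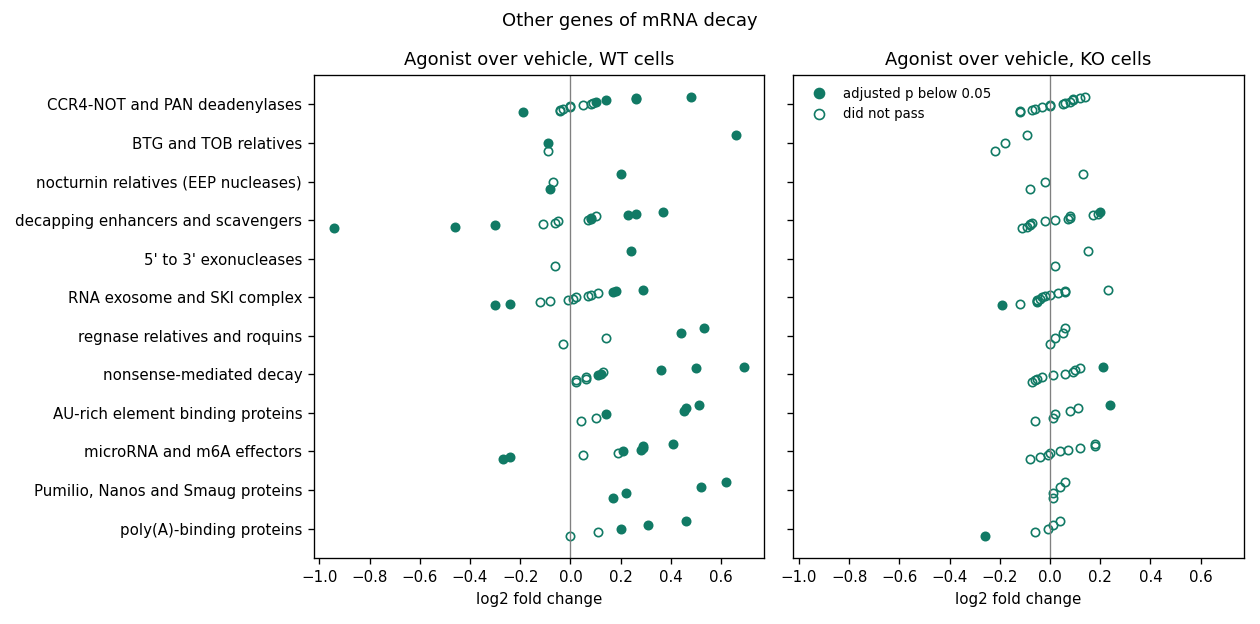
Log2 fold change of agonist over vehicle for the 86 tested decay genes that are not members, by list, in WT cells (left) and KO cells (right); filled points have an adjusted p below 0.05 in limma. Values run from −0.94 to 0.69 in WT cells and from −0.26 to 0.24 in KO cells, with 48 filled points on the left and 5 on the right.

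The agonist effect differed between WT and KO cells for 36 of the 86, more positive in WT cells for 27 and less for 9, where 41.1% of all rows differed (21.5% more positive, 19.6% less). With equal totals these counts were 7 and 38.

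In KO cells 5 of the 86 were called with agonist, 3 higher and 2 lower, where 4.66% of all rows were higher and 4.64% lower. Khsrp, encoding an AU-rich element binding protein that promotes decay, was higher by 0.24 ± 0.05 (adjusted p = 0.0104, limma), Upf1 by 0.21 ± 0.06 (adjusted p = 0.0272) and Edc4, a decapping scaffold, by 0.20 ± 0.06 (adjusted p = 0.0306). Paip2, which displaces poly(A)-binding protein, was lower by 0.26 ± 0.07 on the log2 scale (adjusted p = 0.0269, limma) and Exosc1 by 0.19 ± 0.06 (adjusted p = 0.0426). The count rested on single libraries: leaving out 1 library gave 1 to 15 called genes, with 15 without KO vehicle replicate 6, 9 without KO agonist replicate 2, and 1 without KO agonist replicate 1, 4 or 6.

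Between KO and WT cells under vehicle, 21 of the 86 were higher and 18 lower, where 23.9% of all rows were called in each direction. Pabpc4 had 182 ± 3.13 scaled units in KO cells and 141 ± 6.52 in WT cells (SD, n = 6 each; 0.37 ± 0.04, adjusted p = 7.66e-08, limma). Samd4 was higher by 0.47 ± 0.07 (adjusted p = 1.95e-06, limma) and Lsm3 lower at −0.48 ± 0.08 (adjusted p = 2.56e-05, limma). Of 13 exosome and SKI genes 6 were higher in KO cells, among them Dis3 by 0.24 (adjusted p = 4.83e-06, limma), and 1 was lower. In the BTG and TOB list, Tob1 was lower at −0.34 ± 0.09 (adjusted p = 0.00437, limma) and Btg3 higher by 0.23 ± 0.07 (adjusted p = 0.0151).

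Transcripts reported elsewhere as targets of these factors were followed as a further list, chosen with results of these libraries known, so their direction is not independent evidence. In WT cells, where 28.6% of all rows were called in each direction, all 12 tested targets of ZFP36 were higher with agonist. Their median log2 fold change was 3.24. Cxcl2, a neutrophil chemokine, had 267 ± 40.5 scaled units with agonist and 3.51 ± 1.39 with vehicle, and Lif, encoding leukaemia inhibitory factor, had 1130 ± 132 with agonist and 24.9 ± 5.49 with vehicle (SD, n = 6 each). Of 7 tested targets of regnase-1, a list that includes Zc3h12a itself and shares chemokines with the other, 6 were higher and 1 was lower. In KO cells 2 of the 12 ZFP36 targets were called, both lower with agonist, where 4.64% of all rows were called lower. Leaving out 1 library gave 284 to 1851 rows called in that comparison, so the number of calls there depends on single libraries. Whether the calls of these 2 targets do was not examined. Vegfa had 43.7 ± 2.56 scaled units with agonist and 54.2 ± 4.87 with vehicle (SD, n = 6 each; −0.30 ± 0.06, adjusted p = 0.00981, limma), and Myc, a growth regulator, changed by −0.26 ± 0.08 (adjusted p = 0.0461, limma; 0.0504 with equal totals).

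The genes whose pattern over the 24 libraries was most like that of a member were found as those with the smallest root mean square difference in log2 level, each gene centred on its own mean. For Noct these were Pmaip1 (0.162), Phlda1 (0.171) and Ptger4 (0.211). For Btg2 they were Plaur (0.120), Errfi1 (0.151) and Epha2 (0.174), and for Zc3h12a they were Plk3 (0.151), Plaur (0.169) and Klf6 (0.172), so that Btg2 and Zc3h12a shared Plaur. The nearest gene was Pttg1ip for Btg1 (0.103), Ube2d3 for Zfp36l1 (0.0760), Amotl1 for Zfp36l2 (0.0860), Tnpo3 for Dcp1a (0.0620), Bend3 for Dcp2 (0.0760) and Asb4, also on chromosome 6, for Dcp1b (0.161). A small difference is easier to reach for a member that varied little, so these values are not comparable between members.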

How the data were processed

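Poly(A)-selected RNA of 24 libraries was sequenced, per the labels' protocols. The authors deposited 1 table of signal per gene and library, divided by gene length and by a factor per library, as the table's name and values show; the submitters' processing notes name STAR 2.7.8a, DESeq2, DESeq and GRCm39 without roles. Groups and replicate numbers came from sample titles. The deposited signal was multiplied by 92.094 for the whole table, rows averaging 1 scaled unit or more were kept, and log2(scaled units + 0.5) was fitted with limma 3.58.1 in R 4.3.3, 1 term per group over all 24 libraries, with trend and robust moderation, two-sided tests and Benjamini-Hochberg adjustment over 11557 rows. Fold changes on this scale understate those of low genes. Values times gene length, times a factor of 0.754 to 1.46 per library, gave whole reads within 0.08 for 100% of the values checked, so precision was judged from the spread between libraries and from these reads. No library was identical to another, and the fit was tested on simulated data.

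All members were named, and, of each list, up to 3 called genes with the smallest adjusted p in each of 3 contrasts, with the 3 nearest profiles of each member. Not every gene so picked is described, and 1 of them is not reported here. A few further genes (the Dcp1b neighbours and rows at 0) were chosen after their values were seen, as was the AU-rich heptamer. Members and lists were chosen with earlier results of these data known. Alternatives covered the pseudocount, the filter, the scaling, the samples fitted, the moderation, a replicate block and leaving out libraries. Promoters came from RefSeq, build GRCm38.p6, and 3′ untranslated regions from GENCODE on GRCm38. Neither build is that of the files, so no coordinates were joined.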

Additional observations from a re-analysis of the deposited data

Results flagged for a closer look

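In groups of 6 libraries, a highest or lowest value was singled out when its gap to the nearest other, divided by the range, exceeded Dixon's critical value. Of 48 groups of member levels and shares, 4 were, where chance gives about 1 in 20. All 4 lay in KO cells with vehicle. Zc3h12a stood highest in replicate 4, at 9.37 scaled units. In replicate 6, Btg2 was lowest of its group at 149 scaled units and Zfp36l1 highest at 218, and the share of Zfp36l1 in its pair with Zfp36l2 reached 86.8%. The joined Med29 and Zfp36 row also had its highest value, 11.7 scaled units, in replicate 6. What sets that library apart was not tested.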

How the results depend on the processing

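The log2 fold changes of Noct, Zc3h12a and Btg2 in WT cells stayed between 2.08 and 3.55 under every scaling, pseudocount, filter and left-out library run. Over 1467 member values under the alternatives, 1419 stayed on the same side of the threshold or within the spread, 38 moved and 8 newly passed. The other 2 were labelled reversed, namely Dcp1a in WT cells and the difference of effects for Zfp36l2, both under equal library totals. Many values could not change, since leaving out a library outside a comparison leaves its fold change as it was. The count of 1419 therefore overstates how stable the values are. In all, 5 changed sign. Under equal library totals Dcp1a in WT cells was −0.12, the difference between WT and KO effects was −0.02 for Zfp36l2 and −0.22 for Dcp1a, and Zfp36l2 in KO against WT cells under agonist was 0.15. Btg2 in KO cells was 0.01 without KO agonist replicate 6. Of the values left out, Btg1 in KO cells, at −0.00, ran from −0.05 to 0.03 with 1 library left out. Dcp2 in KO against WT cells under vehicle, at 0.00, ran from −0.02 to 0.04. Equal library totals also raised the number of genes whose effect differed between WT and KO cells to 7546, against 4746, and Zfp36l1 in KO against WT cells under vehicle then passed (0.20, adjusted p = 0.0444, limma).

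The weakest ground was the agonist effect in KO cells, where 1075 genes were called. Leaving out 1 library gave 284 (KO agonist replicate 1) to 1851 (KO agonist replicate 2), and leaving out KO vehicle replicate 6 and KO agonist replicate 2 together gave 2623; called members then numbered 0 to 2 and 2, and other decay genes 1 to 15 and 19, or 3 with only the compared groups in the fit. The cause was not tested.

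Without division by gene length, Btg2 made up 67.1% and 34.6% of its pair in WT cells with agonist and vehicle, and 39.5% and 40.4% in KO cells; Zfp36l1 made up 72.4%, 70.6%, 65.5% and 71.3% of its pair in the same order, and Dcp1b 8.07% and 9.82% in WT cells.

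Correlations of same-numbered libraries' deviations ran from −0.315 to 0.488. Differently numbered libraries were not set beside them, so this range does not show whether replicate numbers pair the samples. With the replicate block 6593 genes were called for the agonist in WT cells, 1122 in KO cells, 4732 for the difference of effects and 5513 for KO against WT with vehicle; called members numbered 0 in KO cells with agonist and 4, Dcp1b included, as in the fit without it, for KO against WT with vehicle.

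Tests by edgeR and DESeq2, planned on recovered reads, were not run. Limma's voom on those reads, chosen after seeing the data, called 6574 genes in WT cells and 1126 in KO cells. Depth limits Dcp1b most, at 90 to 174 reads in WT libraries.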
